A study of Mus musculus with 3 samples.

Results

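Endocardial-like barcodes were picked from single-cell 3' RNA-seq of mouse hearts as barcodes with at least 1 UMI (a counted RNA molecule) of Npr3. They also needed at least 2 of the 6 genes Cytl1, Hapln1, Tmem108, Vwf, Cgnl1 and Plvap, at least 1 of the 5 pan-endothelial genes Pecam1, Cdh5, Emcn, Tie1 and Egfl7, and fewer than 3 of 7 mesothelial genes. The rule found 431 barcodes among the 27497 deposited. There were 132 of 9510 in the isotype library, 141 of 6388 in the library titled PD1/PEM and 158 of 11599 in the library titled PDL1/ATZ. NOD/SCID mice, an immunodeficient strain that lacks functional T and B cells, received pembrolizumab (PEM), atezolizumab (ATZ) or an isotype control antibody on day 0 and day 7. Hearts were taken on day 14 and 3 hearts were pooled into the 1 library of each group. The isotype mice were injected too, so every library comes from mice given an antibody. Titles and treatment tags name opposite antibodies for both treated libraries: Atezolizumab is the tag under the title PD1/PEM and Pembrolizumab the tag under PDL1/ATZ. The library names match the titles, which are used here, and no difference is assigned to an antibody. Both antibodies were raised for human targets, and whether they bound the mouse proteins was not measured.

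The endocardium is the endothelial sheet that lines the chambers of the heart and covers the valves. During development it signals to the muscle below it through neuregulin, Notch and BMP ligands, and part of it turns into valve mesenchyme. In the adult it is told from capillary endothelium by Npr3, the clearance receptor that removes natriuretic peptides from the blood, and by genes of matrix, haemostasis and cell junctions. It makes up a small part of the endothelial cells of the heart.

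The upstream sequence is shown for Npr3, the anchor of the rule, for Rps6ka2, called higher against both classes compared below, and for Dpp4 and Bmx, chosen after the search because their windows hold a match. Of the 12 named genes higher than in vascular cells, 8 had a promoter entry and 4 of these held a match to a motif searched. The windows of Chrm3 and Rps6ka2 held none. Each line gives the 250 bases before the RefSeq start in the direction of transcription (GRCm38.p6), with a match on either strand in capitals. The motifs searched were TGGAAA, read by NFAT factors, and a core read by the zinc finger factors Gata4 to Gata6. The letters of that core are AGATAA. The Npr3 window is chr15:11907372-11907621, minus strand, upstream of the gene and overlapping the long non-coding gene Gm5144 on the other strand. The Rps6ka2 window is chr17:7169865-7170114, plus strand. The Dpp4 window is chr2:62412232-62412481, minus strand, inside the antisense gene Gm13561. The Bmx window is chrX:164258194-164258443, minus strand.
Npr3: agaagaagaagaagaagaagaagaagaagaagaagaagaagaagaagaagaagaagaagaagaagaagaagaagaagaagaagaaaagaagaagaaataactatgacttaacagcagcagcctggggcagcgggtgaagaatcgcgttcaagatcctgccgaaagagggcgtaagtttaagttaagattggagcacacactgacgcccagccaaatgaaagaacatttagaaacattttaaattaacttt
Rps6ka2: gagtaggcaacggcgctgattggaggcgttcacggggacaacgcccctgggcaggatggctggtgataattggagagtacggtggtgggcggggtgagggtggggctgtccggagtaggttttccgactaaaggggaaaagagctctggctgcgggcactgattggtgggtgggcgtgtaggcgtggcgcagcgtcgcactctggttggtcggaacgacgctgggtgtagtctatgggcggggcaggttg
Dpp4: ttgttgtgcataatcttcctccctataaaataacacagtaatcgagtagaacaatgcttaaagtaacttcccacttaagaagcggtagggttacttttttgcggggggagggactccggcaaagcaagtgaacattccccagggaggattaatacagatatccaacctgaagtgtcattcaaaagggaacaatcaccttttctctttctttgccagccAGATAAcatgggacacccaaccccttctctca
Bmx: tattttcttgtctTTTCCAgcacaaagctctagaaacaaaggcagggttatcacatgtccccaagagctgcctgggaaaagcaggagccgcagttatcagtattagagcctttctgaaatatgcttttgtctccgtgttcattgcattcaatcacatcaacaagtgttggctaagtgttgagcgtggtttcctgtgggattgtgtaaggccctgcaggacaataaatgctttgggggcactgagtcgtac
Of the 63 genes called higher in endocardial-like barcodes than in vascular endothelial cells, 45 had a promoter entry. AGATAA or its complement stood in 2 of the 45 (4.44%), against 5.66% of 8460 tested genes and 10.3% of all 27025 promoters. TGGAAA or its complement stood in 11 of the 45 (24.4%), against 14.8% and 18.7%. The ETS motif CAGGAAGT or its complement stood in 3 of the 45 (6.67%), against 2.40% and 2.73%. The matches describe letters in these windows and were not tested.

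The label was checked against the profile of the barcodes, and it was borne out only in part. Most members met the rule by its minimum. Exactly 1 UMI of Npr3 was present in 106 of 132 members in the isotype library, 115 of 141 in PD1/PEM and 110 of 158 in PDL1/ATZ. Exactly 2 of the 6 genes were present in 104, 109 and 106. The rule genes were found unevenly. Cgnl1, a junction protein, had a UMI in 78.8%, 77.3% and 84.8% of members and Vwf, the clotting protein, in 55.3%, 56.0% and 59.5%. Plvap, a protein of endothelial fenestrae, was sparser, in 11.4%, 12.1% and 8.86%. Hapln1, which links hyaluronan to matrix, had a UMI in only 2, 5 and 7 members. These values chose the members and are given as a description. The most Npr3 UMIs in 1 barcode were 14 in isotype, 3 in PD1/PEM and 6 in PDL1/ATZ.

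Npr3 alone did not separate these cells from RNA carried by other barcodes. Npr3 had a UMI in 7 of 30 isotype barcodes with 5 or more macrophage markers (23.3%, median 2541 UMIs), in 12 of 60 in PD1/PEM (20.0%, median 3636) and in 10 of 64 in PDL1/ATZ (15.6%, median 2578). The share over all barcodes was no higher, at 13.6%, 15.6% and 10.6%, with medians of 1532.5, 2013.5 and 1010 UMIs. A UMI of Npr3 by itself is thus not read as expression, and the same share was not computed for the other rule genes. All 13 cardiomyocyte markers were also present in the members of every library, and every member held at least 3 of them. Their summed level in members was 38546, 27548 and 13134 CPM (UMIs of the genes per 1000000 UMIs of the class) in isotype, PD1/PEM and PDL1/ATZ, close to 38490, 26693 and 14684 in vascular endothelial cells of the same libraries. The 10 fibroblast markers summed to 3363, 3996 and 2612 CPM in members against 3766, 4330 and 2913 in all other barcodes. Vascular endothelial cells held 3693, 4085 and 2508. At least 3 fibroblast markers were found in 83.3%, 90.8% and 54.4% of members and 78.5%, 89.0% and 44.0% of vascular cells. For 3 of 10 mural markers the shares were 50.8%, 51.1% and 42.4% against 37.9%, 44.1% and 30.2%. For macrophage markers they were 6.06%, 8.51% and 7.59% against 4.51%, 11.1% and 5.25%. Here and below, all other barcodes are those that are neither members nor vascular endothelial cells. The 4 haemoglobin genes summed to 3427, 6994 and 6734 CPM in members against 3954, 7170 and 8550 in all other barcodes. The part of these transcripts in the results below was not tested. The barcodes are called endocardial-like for that reason.

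The share of endocardial-like barcodes was 1.39% (exact 95% binomial interval 1.16 to 1.64) in isotype, 2.21% (1.86 to 2.60) in PD1/PEM and 1.36% (1.16 to 1.59) in PDL1/ATZ. With 1 library a group there is no test between groups, and all intervals here cover counting error only. The share rose with depth in every library, from 0.168% in the shallowest of 4 equal bins of isotype barcodes to 3.37% in the deepest, from 0.313% to 4.57% in PD1/PEM and from 0.172% to 4.0% in PDL1/ATZ. Members held a median of 2505.5, 3157 and 2139.5 UMIs. After each barcode was thinned to 700 UMIs the order changed. Then 7 of 9027 isotype barcodes (0.0775%, 0.0312 to 0.160), 4 of 6255 in PD1/PEM (0.0639%, 0.0174 to 0.164) and 26 of 11186 in PDL1/ATZ (0.232%, 0.152 to 0.340) met the rule. Thinning left out 483, 133 and 413 shallower barcodes. PD1/PEM, the library with the most UMIs per barcode by the median, was highest as deposited, and after thinning its interval overlapped that of isotype. Thinning matched total UMIs only: a median of 27.1%, 26.9% and 8.04% of them were mitochondrially encoded over all barcodes, so UMIs of other genes were not matched. Among barcodes with at most 25% mitochondrially encoded UMIs and at least 200 genes the share was 2.04%, 2.07% and 1.36%, with isotype and PD1/PEM nearly level.

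**Figure D1:**
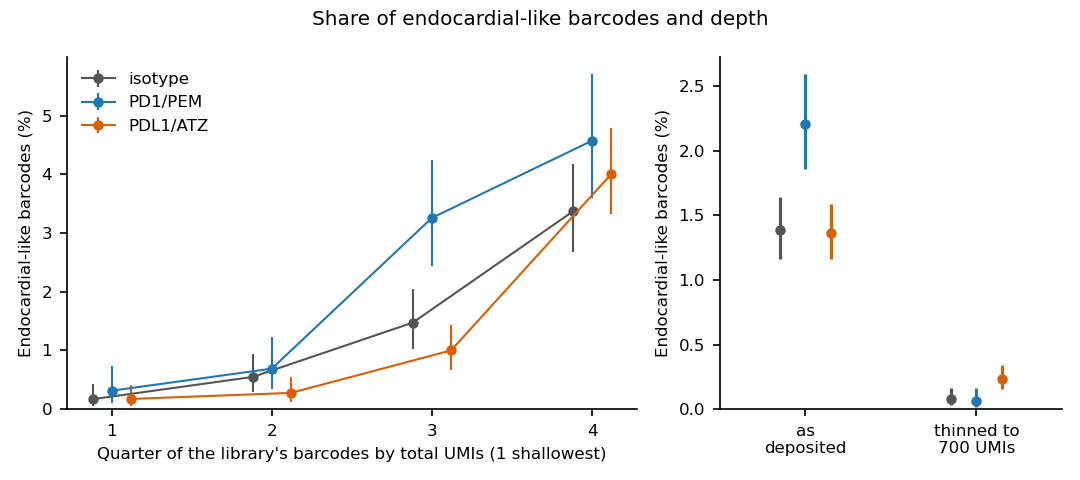
Percent of barcodes that met the endocardial-like rule (y axes), by quartile of each library's barcodes ordered by total UMIs (left) and over the whole library as deposited and after thinning (right). Points are libraries and bars are exact 95% binomial intervals for counting error. The share climbs with depth in all 3 libraries, and PD1/PEM is highest as deposited (2.21%) but not after thinning (0.0639%).

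Genes that the rule did not use were then compared between endocardial-like barcodes and vascular endothelial cells of the same libraries. Vascular endothelial cells were barcodes with no Npr3 UMI, at least 3 of the 5 pan-endothelial genes and at most 1 of the 6 endocardial genes, and they numbered 820, 977 and 2095. Endocardial-like barcodes were higher in a small group of genes led by Nrg1, the neuregulin ligand that endocardium sends to heart muscle, Chrm3, a muscarinic acetylcholine receptor, Rps6ka2, a ribosomal S6 kinase, and Hmcn1, the basement membrane protein hemicentin. They were lower in Gpihbp1, which carries lipoprotein lipase to the capillary surface. The test was edgeR's quasi-likelihood test on UMIs summed per library and class, with the library as a block. It called 63 of 10772 genes higher (0.585%) and 7 lower (0.065%), or 0.65% in all, at an adjusted p under 0.05. The median log2 fold change over all genes was 0.00. The p-values rest on how the gap between the classes varied over these 3 libraries of pooled hearts. Each library is a different group, so the p-values do not measure spread among replicates of a group. Without the library block edgeR called 0 genes (145 had an unadjusted p under 0.05). Without PDL1/ATZ 8 genes were called higher, 7 of them among the 63, and DESeq2 called 10, all among the 63 (Hmcn1, Nrg1, Setbp1, Ptpn14, Epha7, Cdh11, Pde3a, Smoc1, Foxp1 and Dapk1). Leaving out barcodes with 3 or more fibroblast, mural or macrophage markers left 12, 9 and 46 members and 10 genes called higher, among them Chrm3, Smoc1, Hmcn1, Cdh11, Rps6ka2 and Nrg1.

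Nrg1 stood at 102 CPM in isotype members (95% Poisson interval 72.0 to 140, from 38 UMIs), 50.2 in PD1/PEM (31.8 to 75.3, 23 UMIs) and 283 in PDL1/ATZ (231 to 342, 104 UMIs). Vascular endothelial cells of the same libraries held 33.3, 29.7 and 81.2. Members were above vascular cells in all 3 libraries, and the fitted log2 difference was 1.54 ± 0.17 (SE, 3 library pairs, edgeR adjusted p = 9.07e-11). The isotype value rested on few barcodes: 12 members had an Nrg1 UMI, and 13 of the 38 UMIs sat in 1 of them. Nrg1 kept its call without the PDL1/ATZ library, at a log2 difference of 1.21 (edgeR adjusted p = 0.00113).

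Chrm3 stood at 88.4 (60.8 to 124), 91.7 (66.1 to 124) and 818 CPM (728 to 916) in members of isotype, PD1/PEM and PDL1/ATZ. Vascular endothelial cells held 51.5, 70.8 and 164. The gap was thus widest in PDL1/ATZ, where 73 of 158 members (46.2%) had a UMI and 1 barcode held 24. The log2 difference was 1.57 ± 0.16 (SE, 3 library pairs, edgeR adjusted p = 1.64e-11). Without PDL1/ATZ it was 0.53 (edgeR adjusted p = 0.678), and DESeq2 gave 1.18 with all 3 libraries (adjusted p = 1), so that the call was lost in both.

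Rps6ka2 was also far highest in PDL1/ATZ, but lowest in PD1/PEM. Its level was 93.7 (65.3 to 130), 67.7 (46.0 to 96.0) and 416 CPM (353 to 487) in members, against 41.1, 61.6 and 82.8 in vascular endothelial cells. The log2 difference was 1.52 ± 0.18 (SE, edgeR adjusted p = 2.92e-09), and it was 0.60 without PDL1/ATZ (edgeR adjusted p = 0.647) and 1.25 by DESeq2 (adjusted p = 1). In isotype, the barcode with 14 Npr3 UMIs held 12 of the 35 Rps6ka2 UMIs and 7 of the Nrg1 UMIs. That barcode also held 35 Ttn and 19 Myh6 UMIs, both genes of the heart muscle sarcomere.

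Hmcn1 was more evenly spread and was chosen after its values were seen. It stood at 276 (225 to 335), 314 (265 to 370) and 821 CPM (731 to 919) in members against 148, 210 and 264 in vascular cells. It had a UMI in 60, 76 and 101 members. The log2 difference was 1.11 ± 0.12 (SE, edgeR adjusted p = 1.64e-11), and it was 0.71 without PDL1/ATZ (edgeR adjusted p = 3.15e-05). Members were above vascular cells in every library.

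Of the other genes with the highest fold changes, Smoc1, a secreted modulator of BMP signalling, stood at 91.0, 26.2 and 125 CPM in members against 32.8, 19.5 and 37.7 (log2 difference 1.39 ± 0.21, edgeR adjusted p = 2.04e-06). Cdh11, a cadherin of mesenchyme and valves, stood at 69.6, 69.8 and 234 against 38.5, 44.2 and 74.4 (1.21 ± 0.17, edgeR adjusted p = 5.50e-07). Epha7, an ephrin receptor, stood at 34.8, 61.1 and 177 against 19.2, 30.8 and 51.3 (1.40 ± 0.19, edgeR adjusted p = 3.62e-07). These 3 genes were above vascular cells in each library, with the widest gap in PDL1/ATZ. Tuft1 had a log2 difference of 1.62, Plagl1 of 1.56, Dpp4, a surface peptidase, of 1.38, Megf6 of 1.24 and Bmx, a kinase of endocardium and arteries, of 1.22. Each of these rested on between 7 and 20 UMIs in the isotype members and 10 to 13 in PD1/PEM. Without PDL1/ATZ Smoc1 kept its call (edgeR adjusted p = 0.0472), and Cdh11 (0.379), Epha7 (0.294), Tuft1, Plagl1, Dpp4, Megf6 and Bmx lost theirs. Cd3e, a T cell receptor subunit, had the highest log2 difference (1.85 ± 0.47, edgeR adjusted p = 0.0288) from 4, 9 and 11 UMIs. The T cell gene Cd3d and the B cell gene Cd79b were at 0 in members of all 3 libraries.

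**Figure D2:**
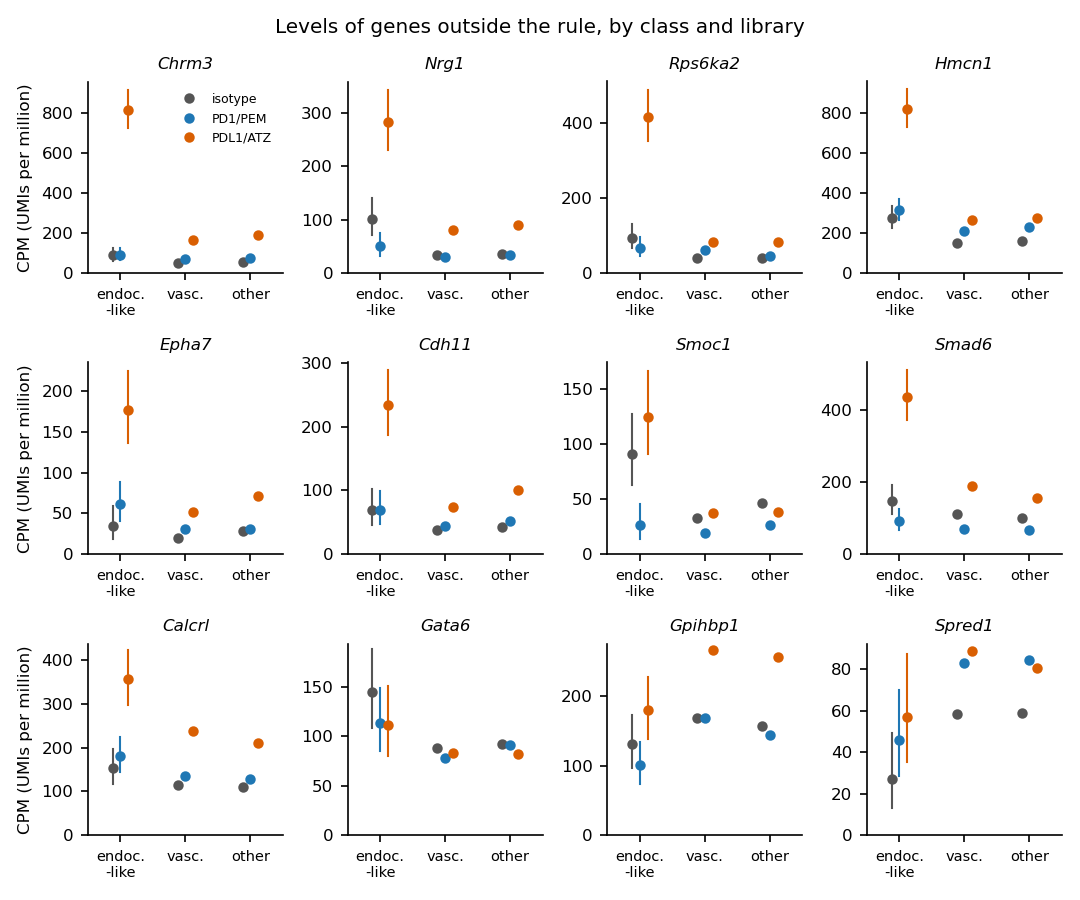
CPM (y axes) of 12 genes outside the rule in endocardial-like barcodes, vascular endothelial cells and all other barcodes (x axes), by library. Points are sums over 1 library each, and bars on the endocardial-like points are 95% Poisson intervals for counting error. Chrm3 in PDL1/ATZ reaches 818 in endocardial-like barcodes against 164 in vascular cells, while Gpihbp1 and Spred1 are lowest in endocardial-like barcodes.

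Lower genes were few. Gpihbp1 stood at 131 (97.1 to 173), 100.4 (73.5 to 134) and 179 CPM (139 to 228) in members against 168, 169 and 266 in vascular cells. Its log2 difference was -0.56 ± 0.13 (SE, edgeR adjusted p = 0.0132). Spred1, an inhibitor of Ras and ERK signalling, stood at 26.8, 45.8 and 57.1 against 58.3, 82.8 and 88.5 (-0.82 ± 0.20, edgeR adjusted p = 0.0220). Egln2, an oxygen-sensing prolyl hydroxylase, and Slc30a1, a zinc exporter, were also lower, at -1.32 and -1.04, as were Myo10 at -0.40 and Ablim3 at -0.39. The lower calls did not hold as a set under other settings: without PDL1/ATZ edgeR called 0 lower at this threshold (517 genes had an unadjusted p under 0.05 in either direction), and DESeq2 called 0 lower with all 3 libraries (118 genes).

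Gene groups gave the following counts against vascular endothelial cells. Of 15 tested endocardial genes outside the rule, 6 were higher (Nrg1, Cdh11, Smoc1, Plagl1, Calcrl and Gata6), 0 were lower and 14 had a log2 difference above 0, with a median of 0.50. Without PDL1/ATZ 2 of the 15 were higher (Nrg1 and Smoc1), and by DESeq2 3 were (Nrg1, Cdh11 and Smoc1). Calcrl, a receptor for adrenomedullin and calcitonin gene-related peptide, differed by 0.50 and Gata6, a cardiac GATA factor, by 0.57 (edgeR adjusted p = 0.0467, and 0.178 without PDL1/ATZ). Gata6 stood at 145, 113 and 111 CPM against 88.4, 78.2 and 82.8. The endocardial factors Nfatc1 (0.30), Gata4 (0.32) and Tbx20 (0.13) did not pass the test, and Gata5 was too sparse, with 1, 0 and 1 UMIs in members. None of 13 capillary genes was higher, 1 was lower (Gpihbp1) and 0 had a log2 difference above 0, with a median of -0.20. Without PDL1/ATZ, and by DESeq2, none of the 13 was called. The rule asked for 3 of the 5 pan-endothelial genes in vascular cells and only 1 in members. The part of this difference in the lower values was not tested. The fatty acid transporter Cd36 and the fatty acid binding protein Fabp4 were at -0.17 each, without passing the test.

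None of 18 further pan-endothelial genes was called in either direction, with a median of -0.06. Of 20 BMP and TGF-beta genes, 1 was higher, the inhibitory Smad6 (log2 difference 0.81 ± 0.13, edgeR adjusted p = 3.51e-05). Smad6 stood at 147, 91.7 and 438 CPM in members against 111, 70.4 and 188. Its call was lost without PDL1/ATZ (0.39, edgeR adjusted p = 0.851) and by DESeq2 (0.73, adjusted p = 0.208). None of 17 Notch pathway genes, 14 VEGF and angiopoietin genes, 9 valve genes, 19 matrix genes or 16 SoxF and ETS factors was called. Of 12 haemostasis genes, 1 was higher, Entpd1, which breaks down extracellular ATP (0.62 ± 0.13, edgeR adjusted p = 0.00261; 0.665 without PDL1/ATZ and 0.424 by DESeq2). None of 24 immediate early, 19 type I interferon, 14 MHC class I or 9 checkpoint genes was called. Cd274, which encodes PD-L1, had 4, 5 and 6 UMIs in members. Pdcd1, which encodes PD-1, had none in members of any library, where the floor of 3 UMIs is 8.03, 6.55 and 8.15 CPM.

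All other barcodes, which leave out vascular endothelial cells, numbered 8558, 5270 and 9346. Against them edgeR called 36 of 16338 genes higher in endocardial-like barcodes (0.22%) and 13 lower (0.0796%), or 0.3% in all. The median log2 difference over all genes was -0.10. Among called genes with at least 50 UMIs and 1 direction in all 3 libraries, Rps6ka2 had the highest log2 difference, 1.52 ± 0.14 (SE, edgeR adjusted p = 2.22e-23), followed by Tuft1 at 1.36, Nrg1 at 1.27 and Chrm3 at 1.25. Megf6, Bmx and Epha7 also passed, as in the comparison with vascular cells. Hmcn1 differed by 0.89 and Smad6 by 0.86. Of 16 endocardial genes outside the rule, 4 were higher here (Nrg1, Smoc1, Cdh11 and Calcrl) and 13 had a log2 difference above 0, with a median of 0.37. Without PDL1/ATZ Nrg1 alone of these 16 was called. Gene lists of heart muscle had 0 of 13 genes above 0 and a median of -0.28, with 0 called. Among named genes lower than in other barcodes were Ppif, the mitochondrial cyclophilin (-2.56, from 3, 0 and 0 UMIs in members), Sumo3 (-1.62) and Cycs, cytochrome c (-0.58). Without PDL1/ATZ, 3 genes stayed higher (Nrg1, Hmcn1 and Ptpn14) and 0 lower (795 genes had an unadjusted p under 0.05). Both comparisons share the member sums, so they are not independent of each other.

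The level of several of these genes rose with the amount of rule evidence in PDL1/ATZ. The genes were chosen because they were higher in these same members than in vascular cells. A step into the rule was thus favoured in advance, and the values describe the genes and are no test. Barcodes just outside the rule, with 1 of the 6 genes and Npr3, held Chrm3 at 261 CPM. Members with 2 of the 6 held 511 and members with 3 or more held 1293. Rps6ka2 went from 119 to 264 to 650 and Epha7 from 58.4 to 98.5 to 297 over the same steps, while Nrg1 went from 115 to 287 to 276. In isotype Chrm3 went from 71.9 to 53.7 to 191 and Nrg1 from 52.9 to 82.3 to 159. Smoc1 had like steps in both libraries, from 51.6 to 78.7 to 128 in isotype and from 54.5 to 112 to 145 in PDL1/ATZ. In PD1/PEM the steps were mixed. Chrm3 stood at 79.7, 79.9 and 130, Tuft1 at 13.1, 25.7 and 37.1, Epha7 at 31.3, 62.8 and 55.7, and Smoc1 at 29.3, 31.4 and 9.29. The last step there rests on 4 UMIs for Tuft1 and 1 for Smoc1.

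Depth moved with this evidence. Median UMIs were 1428, 1918.5 and 2837.5 over the steps in PDL1/ATZ, 2034, 2312 and 2989.5 in isotype, and 2835, 3157 and 3012 in PD1/PEM. The CPM are relative to all UMIs of each stratum. The part of depth in the gradient was not tested. Splitting isotype members by Npr3 gave higher levels of several genes with more Npr3. Members with 2 or more Npr3 UMIs (26 barcodes) held Nrg1 at 305 CPM, Rps6ka2 at 256 and Smoc1 at 207. Those with 1 Npr3 UMI (106 barcodes) held 44.6, 48.0 and 58.3. Without the barcode with 14 Npr3 UMIs the first group held 231, 116 and 193. When the barcode with most UMIs of each gene was left out instead, it held 152, 116 and 150. For Nrg1 that left 12 of 25 UMIs. Cdh11 also rose, from 48.0 with 1 Npr3 UMI to 146 with 2 or more, and Calcrl from 127 to 244. The endocardial genes Nfatc1 and Gata4 ran the other way in isotype, from 65.2 to 36.6 and from 117 to 48.7. Their values with 2 or more Npr3 UMIs rest on 3 and 4 UMIs. Gata4 rose in PD1/PEM (94.3 to 138) and in PDL1/ATZ (125 to 168), where Nfatc1 was nearly level. In PD1/PEM Smoc1 stood at 29.6 and 11.5. Of the 12 genes with the highest fold changes against vascular cells, 4 or more were found in 9 isotype members (6.82%), 12 PD1/PEM members (8.51%) and 45 PDL1/ATZ members (28.5%). The same held for 0.366%, 0.819% and 1.77% of vascular endothelial cells. Those 12 genes were chosen on these barcodes, so the shares only describe them.

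**Figure D3:**
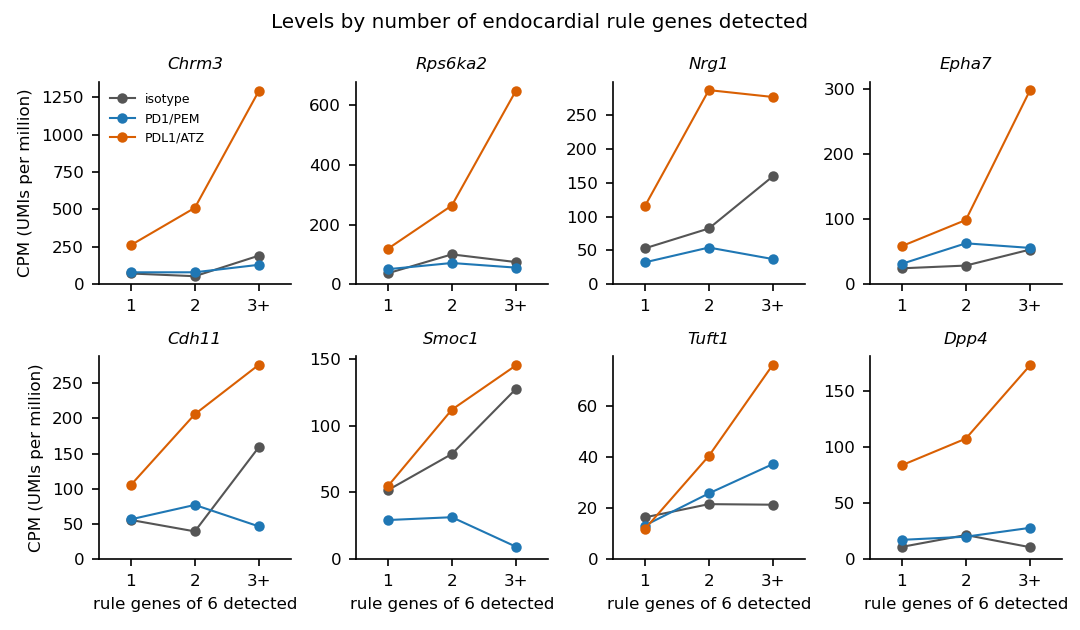
CPM (y axes) of 8 genes outside the rule, in barcodes with Npr3 and a pan-endothelial gene, by the number of the 6 endocardial rule genes detected (x axes). A count of 1 lies just outside the rule; each point sums 1 library. In PDL1/ATZ Chrm3 goes from 261 to 511 to 1293, and the steps in PD1/PEM are mixed. The genes were chosen as higher in these same members, so the steps only describe them.

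The libraries titled PD1/PEM and isotype were compared within endocardial-like barcodes by the ratio of CPM, with an exact conditional 95% interval for counting error. The library titled PD1/PEM held more of several immediate early and growth factor feedback transcripts and less of Ppargc1a and the natriuretic peptides. A gene was counted as apart at a 2-fold ratio or more with an interval that excluded no difference. Among 4236 genes with at least 30 UMIs over both libraries, 92 were higher in PD1/PEM (2.17%) and 75 lower (1.77%), or 3.94% in all. The median log2 ratio was -0.01. With 1 library a group these counts have no replicate check.

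Egr3, an immediate early transcription factor, had 14 UMIs in isotype members and 83 in PD1/PEM members, or 37.5 and 181 CPM, a 4.69-fold ratio (2.72 to 9.22). Btg2 was 2.67-fold higher (2.08 to 3.50), Nr4a1, an orphan nuclear receptor, 2.70-fold (1.98 to 3.79) and Apold1, an endothelial early response gene, 2.96-fold (2.20 to 4.09). Errfi1, a feedback inhibitor of the EGF receptor, was 2.64-fold higher (2.03 to 3.50) and Dach1, a transcription factor of endothelium, 2.59-fold (1.92 to 3.60). The same ratios in all other barcodes of the 2 libraries were close: the log2 ratio was 2.23 in members and 2.42 in others for Egr3, 1.57 and 1.73 for Apold1, and 1.37 and 1.41 for Dach1. The others' ratio lay inside the member interval for each of these 6 genes.

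Ppargc1a, a coactivator of mitochondrial genes, had 521 UMIs in isotype members and 192 in PD1/PEM members, 3.32-fold lower (2.82 to 3.95). Atrial natriuretic peptide (Nppa) had 1161 and 511 UMIs, 2.79-fold lower (2.51 to 3.10). Nppb, the B-type peptide, had 36 and 10 UMIs, 4.26-fold lower (2.15 to 9.98). The other barcodes gave log2 ratios of -1.47, -1.69 and -2.58 for these genes, against -1.73, -1.48 and -2.09 in members. Filamin C (Flnc) was 3.12-fold lower (2.15 to 4.68), with a log2 ratio of -1.46 in the other barcodes. These are transcripts of heart muscle, and their level in members stood beside the cardiomyocyte markers above, which had a median log2 ratio of -0.50 in members and -0.60 in other barcodes.

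The other barcodes' ratio lay outside the member interval for 288 of 4236 genes (6.80%), 114 of them with the member ratio above and 174 below. An exact 95% interval leaves out at most 5% by construction, and the share was somewhat above that. The intervals cover counting error of the members only, and the cause of the excess was not tested. The genes below are given as values only. Nrg1 was 2.01-fold lower in PD1/PEM members (1.18 to 3.56; 38 against 23 UMIs), and the log2 ratio was -1.01 in members and -0.01 in other barcodes. Without the isotype member that held 13 of the UMIs, Nrg1 had 25 against 23 UMIs and was 1.34-fold lower (0.732 to 2.48), which no longer excluded no difference. Mylk4, a myosin light chain kinase, had log2 ratios of -2.13 and -0.57, Pparg of -1.26 and -0.57, Fam46a of -1.46 and -0.53, and Exoc2 of 2.68 and 0.19 (3 against 27 UMIs). Fam46a also rested in part on 1 isotype member, without which it was 1.97-fold lower (1.13 to 3.55). Smoc1 was 3.39-fold lower (1.76 to 7.37; 34 against 12 UMIs), with log2 ratios of -1.76 and -0.82. Slc24a2 had 4 and 32 UMIs. The rule genes set how many Npr3-bearing barcodes enter each library, so their own ratios are not read.

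By list, 6 of 23 measured immediate early genes were higher in PD1/PEM members (Egr3, Btg2, Nr4a1, Egr1, Dusp1 and Ier3), 0 were lower and 21 had a ratio above 1. The median log2 ratio was 0.57 in members and 0.50 in other barcodes. Growth factor feedback genes had 2 of 7 higher (Errfi1 and Spry4) and 3 of 4 haemoglobin genes were higher, with medians of 0.74 and 1.08 in members against 0.53 and 0.90 in others. None of 19 genes of oxidative phosphorylation was apart, with a median of -0.46 in members and -0.51 in others. Among 9 endocardial genes outside the rule, 0 were higher and 2 lower (Smoc1 and Nrg1), with a median of 0.00. The Nrg1 call was lost without 1 isotype member, as given above. None of 17 BMP and TGF-beta genes was apart, and 1 of 12 Notch genes was, the target Hes1 (22 against 74 UMIs, log2 ratios of 1.43 in members and 0.99 in others).

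**Figure D4:**
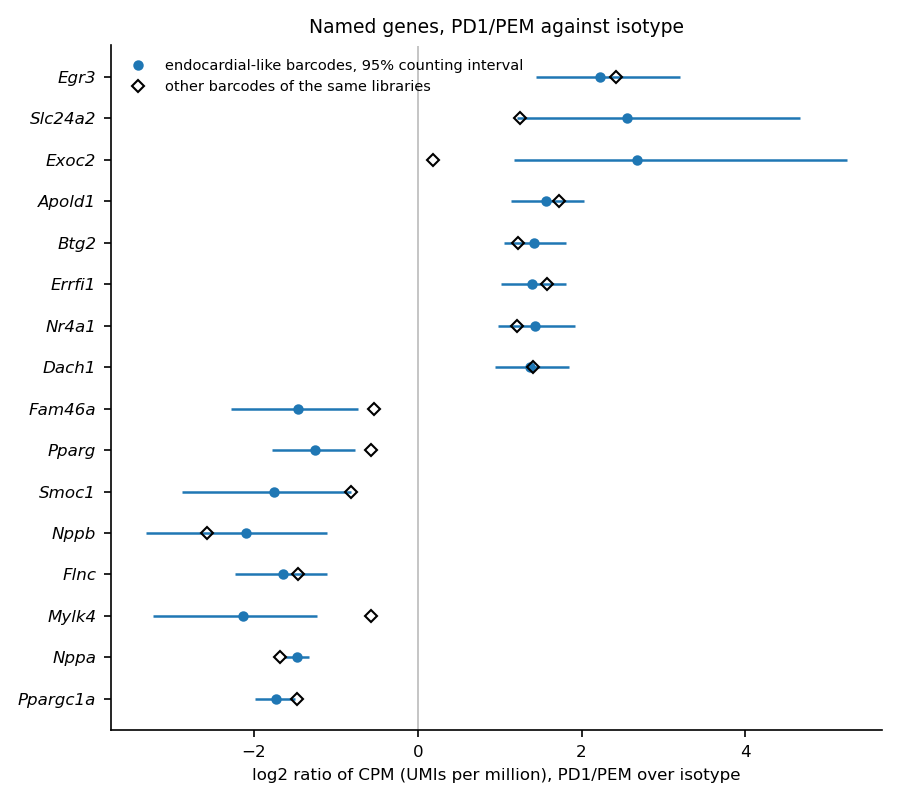
Log2 ratio of CPM, PD1/PEM over isotype (x axis), for the 8 highest and 8 lowest named genes (y axis). Filled points and bars are endocardial-like barcodes with 95% counting intervals. Open diamonds are all other barcodes of the same libraries, without vascular endothelial cells. Egr3, Apold1 and Dach1 coincide with the other barcodes, while Exoc2, Mylk4, Pparg and Fam46a lie apart from them.

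The libraries titled PDL1/ATZ and isotype differed far more, in members and in the other barcodes. Mitochondrially encoded RNA made up a median of 26.3% of member UMIs in isotype and 6.29% in PDL1/ATZ, and 27.1% and 8.04% over all barcodes. The PDL1/ATZ library was also read with other gene symbols: 1942 symbols had UMIs only in the other libraries and 2893 only in PDL1/ATZ, and these were left out. Library and group cannot be told apart here. Among 4357 genes, 900 were higher in PDL1/ATZ members (20.7%) and 243 lower (5.58%), or 26.2% in all, with a median log2 ratio of 0.42 in members and 0.44 in other barcodes. The split turned with the scaling: 464 higher and 411 lower when scaled to UMIs without mitochondrially encoded genes, and 310 higher and 564 lower with TMM factors, with medians of 0.11 and -0.07. Values below are to be read against the median of 0.42.

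Chrm3 had 33 UMIs in isotype members and 301 in PDL1/ATZ members, a 9.13-fold ratio (6.45 to 13.7), and its log2 ratio of 3.19 exceeded the 1.81 of the other barcodes. It was 2.70 with TMM factors. Rps6ka2 had log2 ratios of 2.13 in members and 1.10 in others, Epha7 of 2.30 and 1.35, Hmcn1 of 1.57 and 0.78, and Smad6 of 1.56 and 0.63. For these 5 genes the other barcodes' ratio lay below the member interval. They were chosen because members stood above the other cells, mostly in PDL1/ATZ, so this describes them and is no test. Over all 4357 genes the other barcodes' ratio lay outside the member interval for 435 (9.98%), with members above for 206 and below for 229. Nfatc1, a transcription factor of endocardium, had 22 and 46 UMIs, with log2 ratios of 1.07 in members (interval 1.25 to 3.70 as a ratio) and 0.07 in others. Selp, the endothelial selectin stored with von Willebrand factor, had 8 and 37 UMIs, with log2 ratios of 2.16 and 0.00. Nrg1 at 1.46 and Bmp6 at 1.36 were close to the 1.37 and 1.23 of the other barcodes. The Nrg1 ratio was not stable: it was 0.25 with 2 Npr3 UMIs required and turned to -0.20 without barcodes holding a second cell type.

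Over the 9 measured endocardial genes outside the rule, 5 were higher (Cdh11, Bmp6, Nrg1, Calcrl and Nfatc1; Nrg1 with the reversal just given), 0 were lower and the median log2 ratio was 1.07, against 0.63 in other barcodes. The counts in this paragraph are scaled to all UMIs. TMM factors (0.844 in isotype and 1.18 in PDL1/ATZ) lower every log2 ratio by the same amount. With them, only Cdh11 of these 5 genes stayed at 2-fold or more. SoxF and ETS factors had 7 of 14 higher, among them Dach1 (55 and 328 UMIs, 6.01-fold) and Fli1, with a median of 0.99 in members and 1.14 in others. Cardiomyocyte markers had 0 higher and 7 lower of 13, with a median of -1.24 in members and -0.75 in others. Ttn, the giant sarcomere protein, had 4358 and 870 UMIs, 4.93-fold lower (4.59 to 5.31), with log2 ratios of -2.30 in members and -1.92 in others. Ppargc1a had 521 and 14 UMIs, 35.4-fold lower (21.7 to 67.5), with log2 ratios of -5.15 and -4.71. None of 7 MHC class I genes was apart.

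The highest ratios over isotype also appeared in the other barcodes. Schip1 had 0 UMIs in isotype members and 77 in PDL1/ATZ, at least 26.1-fold higher against a floor of 3 UMIs in isotype, and Adnp had 0 and 40, at least 13.5-fold higher. Atp6v0c and Umad1 had 0 and 31 each, at least 10.5-fold higher. The log2 ratios of these 4 genes in other barcodes were 5.04, 5.27, 6.33 and 4.54. Gse1 had 5 and 176 UMIs, Cox16 2 and 85, Stard13 15 and 237, and Rpl13a 15 and 197. Among the lowest genes were Ppargc1a and the muscle genes Ttn, Mypn, Ryr2, Xirp2, Nrap and Mylk4, with log2 ratios from -5.15 to -2.14.

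**Figure D5:**
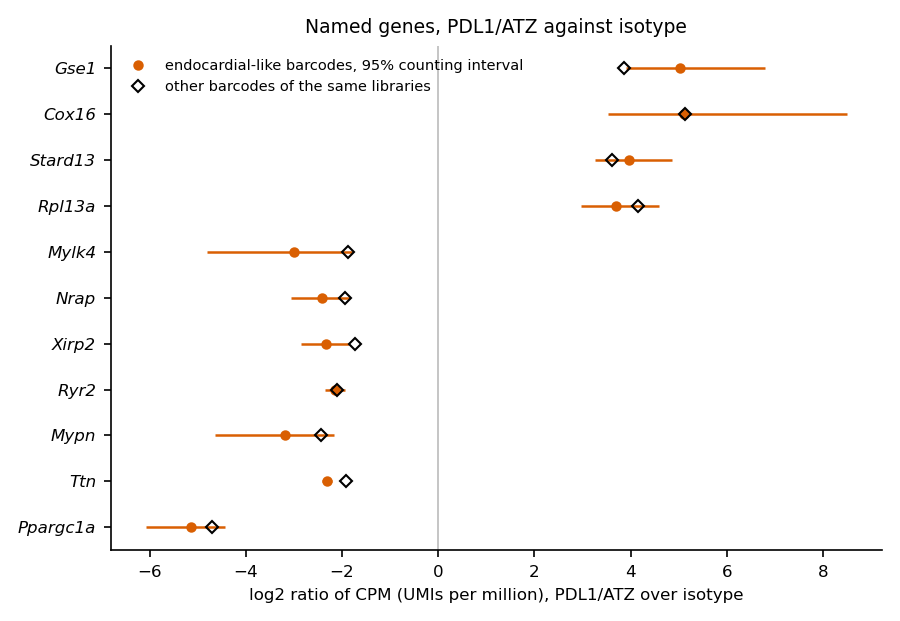
Log2 ratio of CPM, PDL1/ATZ over isotype (x axis), for the genes named here with UMIs in both libraries (y axis). Filled points and bars are endocardial-like barcodes with 95% counting intervals. Open diamonds are all other barcodes of the same libraries, without vascular endothelial cells. The other barcodes shift the same way for every gene shown, and the ratio of Ppargc1a is lowest at -5.15.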

How the data were processed

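The deposited files hold UMI counts per gene and barcode for 3 libraries of a 3' droplet kit (10x Genomics, v3.1), per the labels' protocols. The authors used Cell Ranger, Seurat and mm10, per the submitters' processing notes; the versions, the filters and any removal of doublets are not stated in them. The deposited barcodes have at most 2499 genes and under 30% mitochondrially encoded UMIs. All deposited barcodes were used and no doublet caller was run; barcodes with markers of a second cell type were left out as an alternative. Library totals were 16677883 UMIs (isotype), 14766346 (PD1/PEM) and 15144668 (PDL1/ATZ), with 373479, 458223 and 367981 in members. Isotype and PD1/PEM share 23 barcode sequences, 1 of them a member in either library. Symbols numbered 30415, and 29240 matched GENCODE M21.

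Counts were summed per library and class. Classes were compared with edgeR 4.0.16 (filterByExpr, TMM, two-sided quasi-likelihood test, library as a block because both sums come from the same pooled hearts), adjusted by Benjamini-Hochberg over all 10790 or 16357 genes fitted; genes of the rule are left out of counts. A fit without the replicate block, DESeq2 1.42.0 and fits leaving out each library were alternatives. With 1 library a group, groups were compared by ratios of CPM (UMIs per 1000000) with exact conditional intervals (scipy 1.17.1), with 0.5 UMIs added for log2 ratios; genes read under 1 symbol set were left out against PDL1/ATZ. On simulated counts, edgeR recovered 54 of 98 2-fold and 98 of 100 4-fold changes against vascular cells (10829 genes), and 29 and 82 of 100 against other barcodes (16501 genes). It also called 6 and 5 unchanged genes. The simulation used a fixed dispersion and the same fold change in every library. Real gaps differed between libraries, so these counts do not give the power of the real test. Named genes were the 12 highest and lowest by fold change among called genes with at least 50 UMIs and 1 direction in all 3 libraries, and for ratios the 8 with the interval bound farthest from no difference. Of these, 1 gene is not reported here. The members, rule and gene lists were chosen with earlier results of these data known. Promoters are from RefSeq.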

Additional observations from a re-analysis of the deposited data

How the results depend on the processing

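Limits. Each group is 1 library of pooled hearts, most members rest on 1 Npr3 UMI, and members of the isotype and PD1/PEM libraries hold few UMIs of the genes named, so differences between libraries within members have counting intervals only. The share of members under isotype, PD1/PEM and PDL1/ATZ was 0.273%, 0.407% and 0.414% with 2 Npr3 UMIs required, 0.294%, 0.501% and 0.448% with 3 of the 6 genes required, 0.426%, 0.888% and 0.776% without barcodes holding a second cell type, and 0.0775%, 0.0639% and 0.232% after thinning. It was 2.04%, 2.07% and 1.36% among barcodes with at most 25% mitochondrially encoded UMIs and at least 200 genes.

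Against vascular endothelial cells (63 higher and 7 lower), the counts were 36 and 4 with 2 Npr3 UMIs, 46 and 4 with 3 of the 6 genes, 10 and 1 without second-type barcodes (2446 genes tested), 10 and 0 by DESeq2, and 38 and 15 without the filter on low counts. With vascular cells required to hold 2 of 5 genes the counts were 65 and 5, and with 4 of 5 genes 63 and 28. Without the replicate block edgeR called 0 and 0 (145 genes had an unadjusted p under 0.05); the pairing comes from both classes sharing a library. Leaving out 1 library each gave 8 to 68 higher and 0 to 10 lower, with 8 and 0 without PDL1/ATZ. All 63 genes kept their sign in each of the 3 fits that left out a library.

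Against all other barcodes (36 and 13), the counts were 21 and 3 with 2 Npr3 UMIs, 24 and 4 with 3 of the 6 genes, 27 and 0 with at most 25% mitochondrially encoded UMIs, 2 and 1 without second-type barcodes, 11 and 0 by DESeq2 (294 genes had an unadjusted p under 0.05), 54 and 5 without TMM, and 28 and 7 without the filter. Without the replicate block they were 0 and 0 (344 genes with an unadjusted p under 0.05 by edgeR). Leaving out 1 library each gave 3 to 29 higher and 0 to 8 lower. Fam71a turned from 0.99 to -1.22 without second-type barcodes.

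For PD1/PEM over isotype in members (92 higher and 75 lower), the counts were 53 and 33 with 2 Npr3 UMIs, 52 and 55 with 3 of the 6 genes, 3 and 3 without second-type barcodes (78 genes), 32 and 21 on thinned members, 200 and 160 for a minimum of 10 UMIs, and 19 and 9 for 100. For PDL1/ATZ over isotype (900 and 243), they were 303 and 88, 364 and 119, 103 and 45, 249 and 98, 1436 and 347, and 262 and 101 under the same settings. They were 464 and 411 without mitochondrially encoded genes and 310 and 564 with TMM factors. An alternative chosen after seeing the data left out the 1 member with most UMIs of a gene in the library where it was higher: over PD1/PEM and isotype Nrg1 went from -1.01 to -0.42 and Fam46a from -1.46 to -0.98, and both calls were lost. Against PDL1/ATZ no named gene tried lost its call. Nrg1 turned from 1.46 to -0.20 without second-type barcodes, where members number 12 and 46. Fewer members or genes lower the counts by construction; the cause of the other changes was not tested. Among the named genes, 170 of 282 values against vascular cells kept their call and 112 lost it, and 79 of 186 against other barcodes kept it, 106 lost it and 1 reversed.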
